A study of Mus musculus with 15 samples.

Results

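Trh, the gene for the precursor of thyrotropin-releasing hormone, was followed in every RNA-seq library of a mouse embryonic stem cell (mESC) line in which Smarcb1 can be knocked down. It is 1 gene of the 55228 listed for each library. Trh was selected on its measured values, namely a large fall in the knockdown that grew with time, so its levels and changes are given as a description and without a test. The line, 81K1, was based on the mESC line OG2 and came from a clone, K1, into whose Rosa26 locus a cassette for an shRNA against Smarcb1 had been placed by recombinase-mediated cassette exchange. The Smarcb1 protein belongs to the core of BAF, a family of complexes that remodel chromatin. Transcript levels were measured in 5 groups of 3 libraries: untreated cells at 48 h and 240 h (48 h ctrl, 240 h ctrl), and cells given 1 µg doxycycline per ml of medium daily for 48 h, 72 h or 240 h (48 h kd, 72 h kd, 240 h kd). All groups carried the shRNA cassette and were grown with LIF and serum. Cells at 72 h had no control of their own and were set against 48 h ctrl. A doxycycline-treated line without the shRNA was not analysed here.

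Thyrotropin-releasing hormone is a small amidated peptide that neurons of the hypothalamus release to make the pituitary secrete thyrotropin, which in turn drives the thyroid gland. It is cut out of a larger precursor that holds several copies of the motif glutamine-histidine-proline-glycine between pairs of basic residues: prohormone convertases cut at the basic pairs, carboxypeptidase E trims them away, and the glycine is used to amidate the proline. The gene is best known from the hypothalamus, and its transcript is also present in mESC.

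In the mm10 (GRCm38) assembly Trh (ENSMUSG00000005892.4, protein-coding) lies on the minus strand of chromosome 6, from 92242061 to 92244650. It has 3 exons, at 92244548 to 92244650, 92243672 to 92243887 and 92242061 to 92243125. Exon 1 is untranslated, and the coding bases lie in exons 2 and 3. The annotated transcript of 1384 bases holds 256 coding codons, and translating it by script found 5 copies of the motif, all in exon 3 and each between pairs of basic codons. They are shown because they are the part of the transcript from which the hormone comes. Each stretch below was read from the GENCODE transcript of the same assembly, 5′ to 3′ on the coding strand, with the 4 motif codons in capitals and the basic codons in lower case.
repeat 1: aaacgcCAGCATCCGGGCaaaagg
repeat 2: aaacgaCAGCACCCTGGCcgacgt
repeat 3: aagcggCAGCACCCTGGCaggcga
repeat 4: aagaggCAGCATCCAGGCcggagg
repeat 5: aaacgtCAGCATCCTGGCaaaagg
On chromosome 6 these stretches run from 92243088 to 92243111, 92242992 to 92243015, 92242857 to 92242880, 92242803 to 92242826 and 92242710 to 92242733. The motif codons took 4 different spellings, and repeats 2 and 3 shared theirs. Trh overlapped no other listed gene, so its reads were shared with none.

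The libraries held between 11074998 and 14515300 reads, as recovered from the deposited FPKM values (reads scaled to gene span and library total). Of the 8 embryonic stem cell markers looked at, each had a mean of at least 1 FPKM in every group, and their summed level lay between 1634 and 2672 FPKM. By contrast the summed levels of 7 primitive endoderm, 6 trophoblast and 6 fibroblast markers reached at most 0.861, 1.71 and 1.56 FPKM in any library. Those of 7 neural markers were higher, at 13.3 to 25.2 FPKM, with 4 of the 7 below a mean of 1 FPKM in each group. The library 48 h kd replicate 2 stood apart, its share of mitochondrial reads being 2.35% where the other libraries had 0.469% to 1.81%. Against the rest of its group its chi-square per degree of freedom was 10.2 and 8.27, where the remaining pair had 1.46. The lowest mitochondrial share belonged to 240 h ctrl replicate 3, whose chi-square values were 8.05 and 4.60, against 2.10 for the remaining pair. All 15 pairs within groups differed by more than sampling noise allows, with values from 1.27 to 10.2. The labels do not say whether the 3 libraries of a group came from separate cultures, so the spread between them may be technical.

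Smarcb1, the target of the shRNA, was lower in every kd library than in every ctrl library. Its mean level was 18.0% ± 4.46 of control at 48 h, 15.7% ± 1.84 at 72 h and 19.3% ± 1.55 at 240 h (SD, n = 3 each).

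In 48 h ctrl, Trh stood at 180, 189 and 199 FPKM, from 6394, 5429 and 5850 reads. In 48 h kd it stood at 99.4, 75.0 and 90.7 FPKM, from 2964, 2278 and 2602 reads. In 72 h kd it stood at 41.1, 43.6 and 42.4 FPKM, from 1362, 1394 and 1457 reads. Each of these steps was downwards and without overlap: the lowest control library was above the highest library at 48 h, and the lowest library at 48 h above the highest at 72 h. In 240 h ctrl Trh was at 143, 152 and 166 FPKM, from 4614, 4839 and 5511 reads. In 240 h kd it was down to 12.3, 13.2 and 13.5 FPKM, from 421, 498 and 477 reads. Untreated cells at 240 h thus lay just below those at 48 h, and treated cells at 240 h lay below all others.

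**Figure D1:**
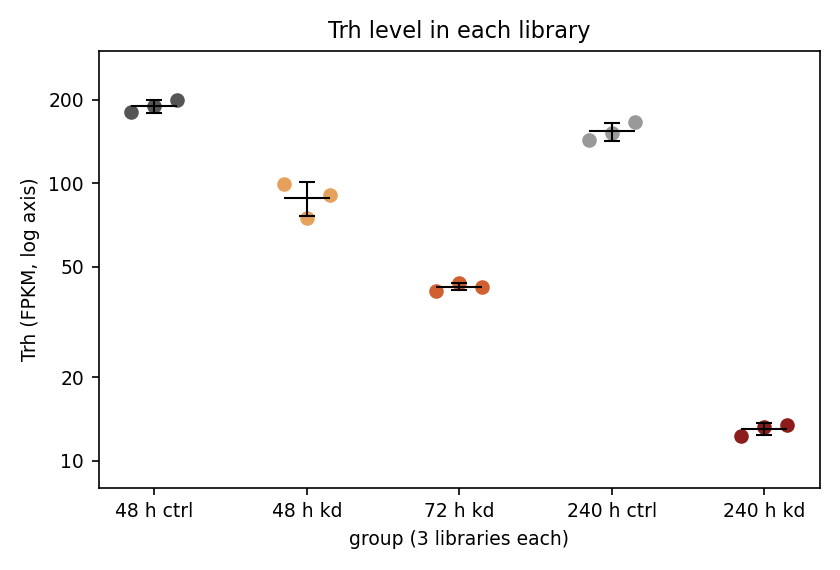
Trh level in FPKM (log axis) in each of the 15 libraries, by group. Points are libraries, bars the mean and SD of 3 libraries. The groups do not overlap, from 180 to 199 FPKM in 48 h ctrl down to 12.3 to 13.5 FPKM in 240 h kd.

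Ordered by their means, the groups ran from 48 h ctrl (190 ± 9.76 FPKM) over 240 h ctrl (154 ± 11.7), 48 h kd (88.4 ± 12.3) and 72 h kd (42.3 ± 1.24) to 240 h kd (13.03 ± 0.624, SD, n = 3 each). In that order each group was separated from the next by more than the spread of its libraries. The narrowest gap was between the untreated groups, where the lowest value at 48 h was 180 FPKM and the highest at 240 h was 166 FPKM, in replicate 3. Without that library the change between the untreated groups was -0.36 on the log2 scale and the change at 240 h was -3.49. The spread between libraries was close to counting error in 240 h kd (coefficient of variation 4.79% against 4.64% from counting) and in 72 h kd (2.93% against 2.67%). It was far above counting error in 48 h kd, at 13.98% against 1.96%. In that group the lowest Trh value belonged to replicate 2, the library with the high mitochondrial share, which also had the highest Smarcb1 value of the group (0.820 FPKM against 0.503 and 0.618).

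Relative to control, 46.6% ± 6.52 of the Trh level was left at 48 h, 22.3% ± 0.655 at 72 h and 8.48% ± 0.406 at 240 h (SD, n = 3 each). On the log2(FPKM + 0.1) scale the change was -1.11 (SE 0.11) at 48 h, -2.16 (SE 0.05) at 72 h and -3.55 (SE 0.07) at 240 h. Without 48 h kd replicate 2 the change at 48 h was -1.0. Within the treated cells the level fell 2.09-fold from 48 h to 72 h and 3.25-fold from 72 h to 240 h. The change at 240 h exceeded that at 48 h by -2.44 on the log2 scale (SE 0.14). In untreated cells the change from 48 h to 240 h was -0.30 (SE 0.07), a ratio of 1.23 between the means. In bulk RNA, fewer cells with the transcript and less transcript per cell cannot be told apart.

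Over the same time the Smarcb1 level did not follow this course. The ratio of the Smarcb1 means was 1.15 between 48 h kd and 72 h kd and 0.980 between 48 h kd and 240 h kd, while for Trh the ratios were 2.09 and 6.78. Thus at 48 h a larger share of Trh than of Smarcb1 transcript was left, at 72 h the shares were 22.3% and 15.7%, and at 240 h the order was turned, with 8.48% of Trh and 19.3% of Smarcb1.

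**Figure D2:**
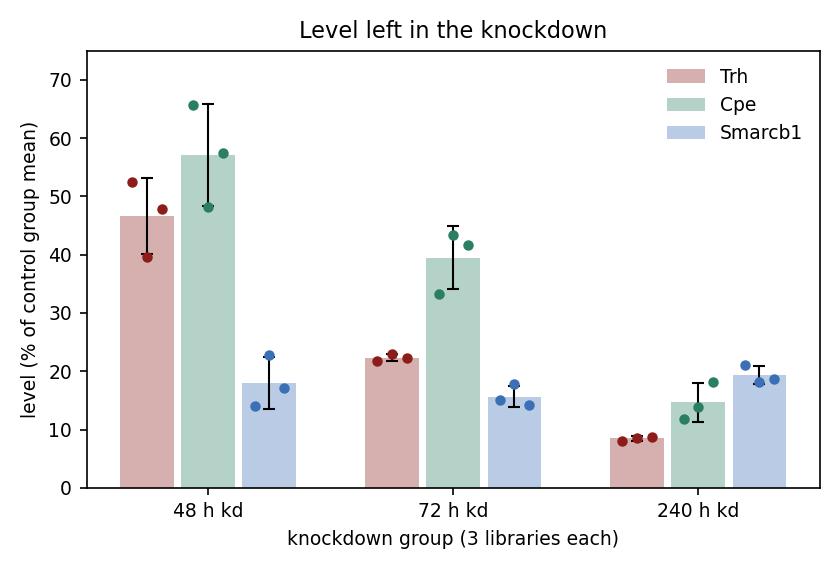
Level of Trh, Cpe and Smarcb1 in the 3 knockdown groups, in % of the mean of the control group. Points are libraries, bars the mean of 3 libraries with SD. Trh goes from 46.6% over 22.3% to 8.48% and Cpe from 57.1% over 39.5% to 14.6%, while Smarcb1 stays between 15.7% and 19.3%.

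Set against the rest of the transcriptome, Trh was abundant in untreated cells. Its rank was taken per kilobase of exon, from reads of the whole gene span. It was between 73 and 78 of 21518 protein-coding genes in the 48 h ctrl libraries and between 95 and 104 in 240 h ctrl. The rank was 212 to 263 in 48 h kd, 556 to 601 in 72 h kd and 2334 to 2528 in 240 h kd. Among protein-coding genes whose control mean reached 1 FPKM, the fall of Trh was number 34 by size of 7001 at 48 h, number 5 of 7001 at 72 h and number 1 of 6996 at 240 h. Among all tested genes, low and noncoding ones included, it was number 129 of 11420, 39 of 11440 and 6 of 11401. A fall without overlap at each step, from 48 h ctrl to 48 h, 72 h and 240 h kd, was seen in 73 of the 11433 genes that averaged 0.5 FPKM or more (0.639%). Of all 11433 genes, 1 had a group mean that fell more than 2-fold at each of these 3 steps, and this was Trh. Since Trh was chosen for that course, these ranks describe it and test nothing.

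Genes linked to the hormone, and 68 precursors of other peptide hormones, were examined next, in 7 lists of 138 genes in all besides Trh. They were tested with limma on log2(FPKM + 0.1), over genes that averaged 0.5 FPKM or more, and called at an adjusted p below 0.05 with a log2 change beyond 0.58 in either direction. The list genes that passed the minimum numbered 34 at 48 h, 33 at 72 h and 35 at 240 h. In limma 3 rose and 0 fell at 48 h, where 3.99% of all tested genes were called. At 72 h 7 rose and 1 fell, where 13.5% were called, and leaving out any 1 library left 5 to 6 list genes called. At 240 h 5 rose and 2 fell, where 8.91% were called. The minimum was on the mean of ctrl and kd libraries together, so it could admit a gene through its rise and drop one through its fall. Sct at 72 h and Vgf at 240 h passed only through their kd libraries. Pdyn passed at 48 h and no longer at 72 h or 240 h, where voom called it lower. The median log2 change of the tested list genes was 0.11, 0.18 and -0.08 at the 3 times, against 0.01, 0.01 and 0.00 over all genes. The balance of directions depended on the method: voom on recovered reads, which also tests long genes of low FPKM, called 4 higher and 7 lower of 65 list genes tested at 48 h (9.14% of all genes were called), 9 higher and 12 lower of 65 at 72 h (22.5%), and 7 higher and 8 lower of 68 at 240 h (18.0%). In untreated cells between 48 h and 240 h limma called 0 list genes of 34 tested (11 at an unadjusted p under 0.05, as were 26.5% of all tested genes). There 54 of all tested genes (0.475%) were called, a number that fell to between 2 and 10 without any 1 library. With the replicate number as a block it was 0. Voom on recovered reads called 3 list genes in untreated cells, where 1.31% of all genes were called.

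Of the enzymes that release the hormone from its precursor, the convertases of neuroendocrine cells were at the edge of detection. Pcsk1, which makes the early cuts, had 17 to 25 reads per library in 48 h ctrl, and Pcsk2, which makes later ones, 13 to 23 reads. Furin, the convertase of the general secretory pathway, was at 2.54 ± 0.248 FPKM in 48 h ctrl and was not called by limma at 48 h, 72 h or 240 h, with log2 changes of 0.02, 0.58 and 0.13. At 72 h its adjusted p was 0.0012 and the change lay just inside the size limit, and voom on recovered reads put it just outside and called it (0.60, adjusted p = 5.09e-09). Pcsk4 and Pcsk7, convertases of germ cells and of many tissues, and Qpctl, a glutaminyl cyclase of the kind that closes the first residue of the hormone, were tested and not called by limma at these times, while voom called Pcsk7 lower at 72 h (-0.63, adjusted p = 2.00e-06). Pam, the enzyme that amidates peptide hormones, was at 0.0359 ± 0.00578 FPKM in 48 h ctrl, from 99 to 152 reads spread over a gene span of 300533 bases.

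Pcsk1n, whose product proSAAS is an inhibitor of Pcsk1, rose at all 3 times in limma, although at 48 h the call was lost with the replicate block (adjusted p = 0.0501). Untreated cells had 4.64, 5.66 and 4.95 FPKM at 48 h, against 4.03, 4.97 and 4.75 later at 240 h. Treated cells had 9.23, 8.36 and 9.80 FPKM at 48 h, 15.9, 16.5 and 16.5 FPKM at 72 h, then 16.5, 17.4 and 18.0 at 240 h. No kd library overlapped a ctrl library, and from 48 h kd to 72 h kd and 240 h kd the mean went up where that of Trh went down. The log2 changes from 48 h to 240 h were 0.83 (SE 0.09), 1.67 (SE 0.07) and 1.90 (SE 0.09), with limma adjusted p of 0.00502, 6.25e-05 and 0.000111. Pcsk1n overlaps 135 bases of Eras, on the opposite strand, which itself changed by 0.30, 0.80 and 0.97 on the log2 scale. Whether reads were counted by strand was not established here, so reads from the shared bases cannot be assigned.

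Cpe, the carboxypeptidase that trims the cut peptides, fell below the FPKM minimum because its reads are divided by a gene span of 100513 bases, but it was covered by 293 to 393 reads in each ctrl library. It was singled out within its list after its values were seen. Cpe (ENSMUSG00000037852.8, chromosome 8, 64592542 to 64693054, minus strand) had 0.285, 0.268 and 0.287 FPKM in untreated cells at 48 h, against 0.237, 0.237 and 0.236 later at 240 h. Treated cells had 0.184, 0.135 and 0.161 FPKM at 48 h, 0.0933, 0.122 and 0.117 FPKM at 72 h, then 0.0279, 0.0329 and 0.0431 at 240 h. Like Trh, it was lower at every step without overlap, and 57.1% ± 8.76, 39.5% ± 5.42 and 14.6% ± 3.27 of the control level was left at 48 h, 72 h and 240 h (SD, n = 3 each). Voom with limma on the recovered reads, which keeps long genes, gave log2 changes of -0.82 (SE 0.10, adjusted p = 0.000128), -1.35 (SE 0.10, adjusted p = 1.46e-11) and -2.77 (SE 0.14, adjusted p = 5.02e-11). On log2(FPKM + 0.1) without a minimum, where the pseudocount weighs on so low a value, the changes were -0.55 (adjusted p = 0.0695, not called), -0.85 (adjusted p = 0.00379) and -1.32 (adjusted p = 0.00137).

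Of the 11, 21 and 15 list genes that voom called at 48 h, 72 h and 240 h, 8, 12 and 8 had been below the FPKM minimum. Among the convertases Pcsk6 fell by 0.59 and 0.76 (log2) at 72 h and 240 h (SE 0.06 each), with voom adjusted p of 4.64e-09 and 1.35e-08. The few reads of Pcsk1 fell by 1.35 and 1.48 (log2) at 48 h and 72 h (SE 0.35 and 0.34), with adjusted p of 0.0142 and 0.000624. Those of Pcsk2 fell by 1.27 at 72 h (adjusted p = 0.00166) but rose by 1.76 at 240 h (adjusted p = 1.59e-05), in a gene that overlaps the antisense genes Pcsk2os1 and Pcsk2os2. Pdyn, the precursor of the dynorphin opioid peptides, fell by 2.49 and 1.89 at 72 h and 240 h (SE 0.22 and 0.19), with adjusted p of 8.90e-10 and 3.73e-07. Rxrg, a retinoid X receptor that can pair with thyroid hormone receptors, fell by 1.28, 4.62 and 1.30 at 48 h, 72 h and 240 h (adjusted p = 0.00109, 3.80e-09 and 0.000117). Others called below the minimum included Cpd and Crym (lower at 48 h), Pcsk5 and Grp (lower at 72 h), Prkcb (lower at 240 h), Slc16a10 and Itpr2 (higher at 72 h) and Apln (higher at 48 h and 240 h).

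Granule proteins pack peptide hormones for regulated release, and 2 of them, Chga and Vgf, were tested and called in opposite directions at 240 h. Chga, chromogranin A, was at 1.48, 1.40 and 1.53 FPKM in ctrl and at 0.950, 0.719 and 0.883 FPKM in kd, a log2 change of -0.73 (SE 0.10, limma adjusted p = 0.00412). Vgf, a secreted granule peptide precursor, was at 0.358, 0.397 and 0.348 FPKM in ctrl and at 1.22, 1.18 and 0.981 FPKM in kd, a log2 change of 1.39 (SE 0.10, adjusted p = 0.00046). In both genes the ctrl and kd libraries were fully apart. Vgf passed the FPKM minimum only through its kd libraries, so it could be tested only because it was high there, and without a minimum its adjusted p was 0.00151. Neither was called at 48 h, with log2 changes of 0.08 and 0.44, and the difference between 240 h and 48 h was itself called for both, as for Pcsk1n and Calca (4 of 34 list genes tested, where 5.82% of all genes were). Scg3, another granule protein, was below the FPKM minimum, with 18 to 25 reads per library in 48 h ctrl and 17 to 24 in 240 h ctrl against 5 to 9 in 72 h kd and 7 to 10 in 240 h kd. Voom called it lower at 72 h (-1.65, adjusted p = 0.000121) and 240 h (-1.31, adjusted p = 0.00187), and for the difference between 240 h and 48 h (-1.25, adjusted p = 0.0388). Chgb had 1 to 4 reads in the 48 h ctrl libraries and Scg2 had 0.

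The receptors and the degrading ectoenzyme of the hormone were near the limit of detection in all groups. Trhr, the receptor of the pituitary, had 0 to 2 reads in every library, and Trhr2, the second receptor, likewise had 0 to 2. Trhde, the ectoenzyme that breaks down the released hormone, had 0 to 5 reads. Downstream of the receptor, Itpr3, an inositol trisphosphate receptor of the endoplasmic reticulum, rose by 1.01 and 0.74 (log2) at 72 h and 240 h (SE 0.04 and 0.06), with limma adjusted p of 5.34e-05 and 0.000598. Itpr3os, on the opposite strand, overlaps 1783 of its 64920 bases, and reads from the shared bases cannot be assigned. Gna11, a Gq-class G protein, and Plcb3, a phospholipase C, were tested and not called, with changes of -0.14 and -0.23 at 240 h. Of the cytosolic enzymes that can cleave the hormone, Pgpep1, pyroglutamyl peptidase, rose by 0.75 at 72 h (SE 0.05, adjusted p = 0.000138) and was not called at 240 h (-0.24). Prep, prolyl endopeptidase, was not called, with changes of -0.22, -0.28 and -0.07.

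Of 21 thyroid axis genes, 5 passed the FPKM minimum at 48 h and 72 h and 6 at 240 h, and 1 was called by limma. Ncoa3, a coactivator of nuclear receptors, rose by 0.59, 0.59 and 0.72 (log2) at the 3 times (SE 0.04, 0.03 and 0.04), with limma adjusted p of 0.00115, 7.39e-05 and 0.0002. At 48 h and 72 h it lay so close to the size limit that the call was lost without 48 h ctrl replicate 3 (0.58 and 0.57), without 48 h kd replicate 2 at 48 h (0.58) and without 72 h kd replicate 1 at 72 h (0.58). The hormones downstream, Tshb and Prl, had at most 2 and 0 reads per library in 48 h ctrl. Of the transcription factors known to act on Trh in other tissues, 7 of 14 passed the minimum and 0 were called by limma at 48 h, 72 h or 240 h (2, 3 and 6 of the 7 at an unadjusted p under 0.05, as were 31.9%, 60.8% and 44.9% of all tested genes), while voom called 1, Arnt2, at 48 h (-0.61, adjusted p = 0.00332). Among those at an adjusted p under 0.05 but inside the size limit, Stat3 differed by -0.27, Klf10 by -0.26 and Sp1 by 0.37 at 240 h (adjusted p = 0.00412, 0.00654 and 0.0048).

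Trh was then compared with the precursors of 68 other peptide hormones and neuropeptides, on the scale of reads per exonic kilobase and library total. This is as FPKM, with exonic length in place of gene span. The reads are those of the whole span, introns included, so genes with long introns can come out too high. Levels of different genes are thus only roughly comparable. In 48 h ctrl Trh stood at 355 ± 18.3, and 56 of the 68 others had a mean below 1. The highest other was Apela, the precursor of the apelin receptor ligand Elabela, at 58.2, so Trh was 6.09-fold above it. Agrp came next at 48.0, but its listed span holds parts of Ripor1 and Ctcf, and its reads cannot be assigned to it. By 240 h kd Trh was at 24.4 ± 1.17 and Apela at 106.

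Apela was called higher in the knockdown at all 3 times, with its peak at 72 h. Untreated cells had 6.45, 6.72 and 6.50 FPKM at 48 h, against 5.50, 5.63 and 5.36 later at 240 h. Treated cells had 12.1, 12.4 and 12.1 FPKM at 48 h, 17.5, 16.7 and 16.9 FPKM at 72 h, and 11.6 to 12.1 FPKM at 240 h. From 72 h kd to 240 h kd Apela was thus lower again, as Trh was. The ctrl and kd libraries were fully apart, with log2 changes of 0.88, 1.36 and 1.10 (SE 0.04, 0.03 and 0.03) and limma adjusted p of 0.000832, 1.35e-05 and 5.72e-05. The predicted gene Gm45886, on the same strand, covers 8680 of its 8920 bases and shares its reads. Calca, the precursor of calcitonin and its gene-related peptide, was at 3.33, 3.41 and 2.99 FPKM in ctrl and 2.01, 2.03 and 1.55 FPKM in kd at 240 h. Its libraries did not overlap, and the log2 change was -0.78 (SE 0.11, adjusted p = 0.00497), while it was not called at 48 h (0.32) or 72 h (0.08).

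Of the other precursors, 3 were called at 72 h from few reads. Adm2 changed by -0.70 (adjusted p = 0.0407, 21 to 51 reads per library), Npw by 0.82 (adjusted p = 0.0343, 9 to 29 reads) and Sct by 1.84 (adjusted p = 0.0234, 1 to 11 reads) in limma. Sct passed the FPKM minimum only through its kd libraries. None of the 3 calls was stable to the removal of a library. The call of Adm2 was lost in 4 of 6 removals (48 h ctrl replicates 2 and 3, 72 h kd replicates 1 and 2), with adjusted p from 0.0844 to 0.110. That of Npw was lost in 5 of 6 (all but 72 h kd replicate 2), with adjusted p from 0.0523 to 0.10, and that of Sct in 5 of 6 (all but 48 h ctrl replicate 2), with adjusted p from 0.0575 to 0.0679. Without a minimum on FPKM all 3 calls were lost as well, while voom called Adm2 (-0.71, adjusted p = 0.0097) and Npw (0.88, adjusted p = 0.0163). For Adm2 the direction turned with the control: 72 h kd had 1.05 FPKM, 48 h ctrl 1.77 and 240 h ctrl 0.890, and voom called it lower in untreated cells at 240 h than at 48 h (-1.0, adjusted p = 0.0252).

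**Figure D3:**
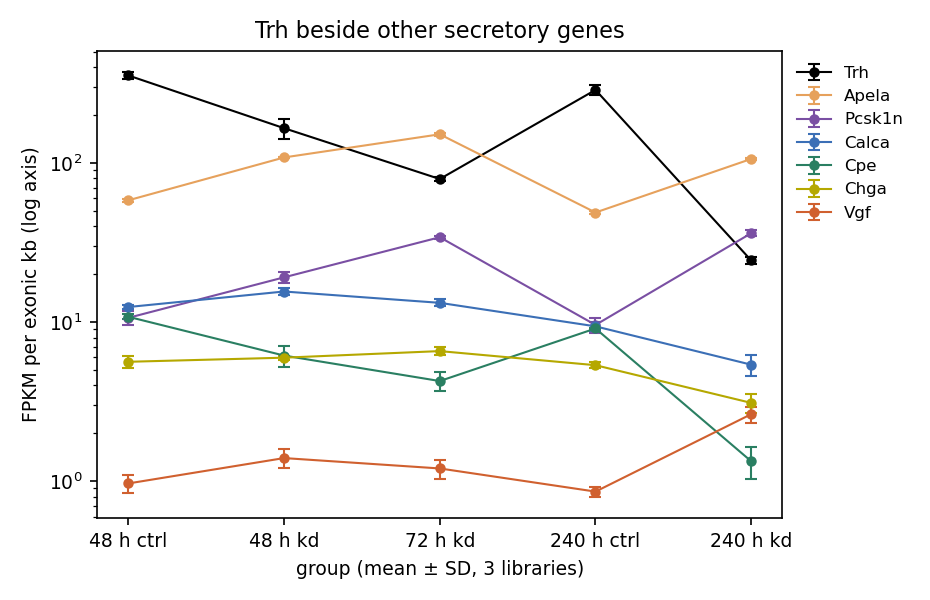
Trh beside other genes of peptide hormones and their processing, in FPKM computed per exonic kilobase (log axis), as mean and SD of 3 libraries per group. Reads of the whole gene span were used, introns included. Lines join group means to guide the eye. Trh falls from 355 to 24.4 between 48 h ctrl and 240 h kd and Cpe from 10.8 to 1.33, while Apela rises from 58.2 to 106 and Pcsk1n from 10.6 to 36.2.

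Around Trh, 17 other genes were listed within 500 kb, of which 5 had a mean of at least 0.5 FPKM, all of them on the side of lower coordinates. On the other side the 4 listed genes, Gm44803, Gm44024, Prickle2 and Gm17797, had means of at most 0.0152 FPKM, although Prickle2, like Cpe, is a long gene with countable reads. The nearest measured neighbour, Rbsn, an endosomal trafficking protein, ends 27.1 kb from Trh and was not called by limma at 48 h, 72 h or 240 h, with log2 changes of -0.01, 0.00 and -0.18. Mrps25, a protein of the mitochondrial ribosome, Nr2c2, an orphan nuclear receptor, and Ccdc174, with gaps of 58.0, 67.8 and 342 kb, were not called either. Their changes at 240 h were -0.04, -0.17 and 0.03. Nr2c2 and Mrps25 overlap each other.

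Of the neighbours below the FPKM minimum, Prickle2, Fgd5 and Grip2 had enough reads for voom, and they were looked at after their values were seen. Prickle2, a planar cell polarity protein 126 kb from Trh, was covered in untreated cells by 81 to 109 reads (48 h) and 92 to 110 reads (240 h), and in treated cells by 28 to 40 (48 h), 13 to 31 (72 h) and 30 to 37 reads (240 h). Its ctrl and kd libraries were fully apart, and it fell by 1.39, 2.17 and 1.69 (log2) at 48 h, 72 h and 240 h (SE 0.17, 0.22 and 0.17), with voom adjusted p of 0.000117, 9.58e-09 and 2.08e-07. Unlike Trh, it was not lower at 240 h than at 72 h, and the difference between 240 h and 48 h was -0.30 (adjusted p = 0.376). Fgd5, an exchange factor for a small GTPase, 166 kb from Trh on the other side, was covered in untreated cells by 167 to 256 reads (48 h) and 177 to 210 reads (240 h), and in treated cells by 105 to 116 (48 h), 102 to 144 (72 h) and 76 to 105 reads (240 h). It fell by 0.77, 0.82 and 1.23 (SE 0.12, 0.12 and 0.13), with adjusted p of 0.000538, 1.84e-06 and 4.40e-07. Grip2 was not called, with changes of -0.03, -0.21 and 0.10. Each of Prickle2 and Fgd5 holds other listed genes of few reads within its span.

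Slc6a6, the taurine transporter, was called at 240 h. It lies on the plus strand of chromosome 6 from 91684053 to 91759066, 483 kb from Trh, and was at 5.33, 4.99 and 4.91 FPKM in ctrl and at 2.95, 2.83 and 2.96 FPKM in kd at that time. The libraries were fully apart, and the log2 change was -0.78 (SE 0.04, limma adjusted p = 0.000179). At 48 h and 72 h, when 46.6% and 22.3% of Trh were left, the change of Slc6a6 was -0.08 (adjusted p = 0.235) and -0.06 (adjusted p = 0.146).

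**Figure D4:**
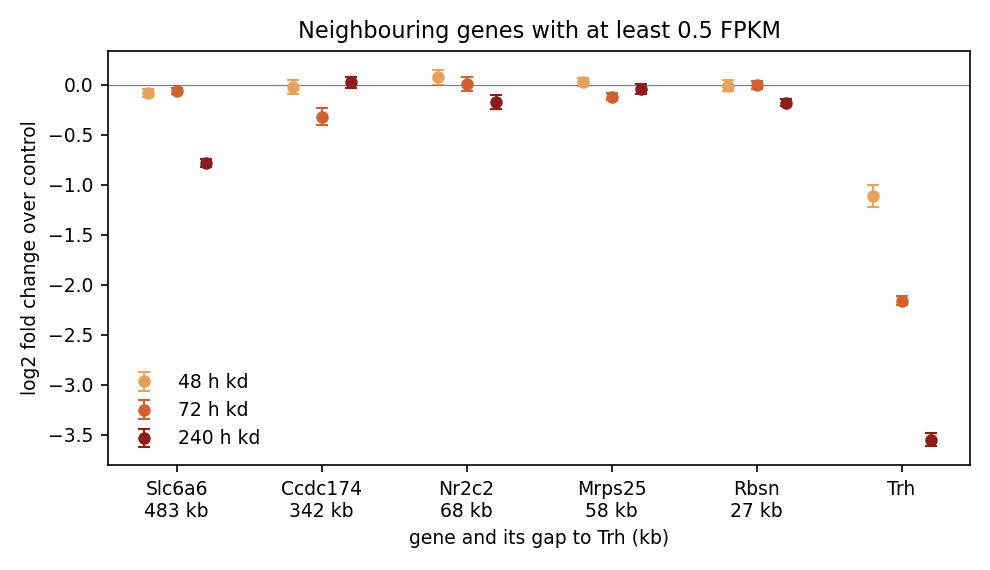
Log2 fold change over control with its standard error at 48 h, 72 h and 240 h for Trh and the 5 genes within 500 kb that had at least 0.5 FPKM, with the gap to Trh in kb. Trh lies at -1.11, -2.16 and -3.55, and Slc6a6 at 240 h (-0.78) stands below the other neighbours drawn.

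To find the genes whose course was most like that of Trh, 7102 genes that averaged 1 FPKM and 10 reads or more were ordered by the root mean square distance of their log2(FPKM + 0.1) values, centred on 48 h ctrl, over the 15 libraries. The values share the libraries and their 5 groups, and the order is a description. The median distance was 2.04. Krt17, a type I keratin, was closest at 0.53, with 7.21 ± 0.536 and 6.17 ± 0.228 FPKM in untreated cells at 48 h and 240 h, and 5.21 ± 0.665, 2.43 ± 0.156 and 0.743 ± 0.129 FPKM in treated cells at 48 h, 72 h and 240 h (SD, n = 3 each). Its course had the same order of groups as Trh and no overlap between the steps, but the fall at 240 h was smaller, at -3.13 from 48 h ctrl against -3.85 for Trh. The next were Urah (0.75), a hydrolase of urate breakdown, Laptm5 (0.76), a lysosomal membrane protein, Crabp1 (0.82), which binds retinoic acid, and Inhbb (0.82), the activin beta B subunit.

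The rest of the 10 were Krt42, Zfp459, Tmem125, Smarcb1 and Ly6g6e, at distances of 0.87 to 0.99. Krt42 is another type I keratin and lies beside Krt17 on chromosome 11 (100262882 to 100269871, against 100256217 to 100261029). Inhbb was at 13.3 ± 0.896 FPKM in 48 h kd against 12.4 ± 0.411 in 48 h ctrl, when Trh was already at 46.6% of control. Ly6g6e was at 5.08 ± 0.21 FPKM in 72 h kd against 5.59 ± 0.433 in 48 h ctrl, when Trh was at 22.3%. Urah went from 2.48 ± 0.183 to 2.25 ± 0.149 FPKM between 72 h and 240 h kd, while Trh fell 3.25-fold.

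By Pearson correlation over the 15 libraries, which takes shape without size, the first 5 were Cth (0.988), Apobec3 (0.986), Krt17 (0.985), Tmem151b (0.982) and B4galnt4 (0.982), and 122 genes were above 0.9. Cth, an enzyme of cysteine synthesis, and Apobec3, a cytidine deaminase that restricts retroviruses, shared the order of the groups with Trh. Their falls at 240 h kd from 48 h ctrl were -1.87 and -1.19 on the log2 scale, against -3.85 for Trh. Krt17 was the 1 gene found by both measures. Of the genes named by either measure, Urah, Zfp459, Ly6g6e, Cth, Apobec3 and Tmem151b overlap other listed genes. These include Ly6g6d for Ly6g6e, Cbx7 for Apobec3 and Tcte1 for Tmem151b, and reads from the common bases cannot be assigned.

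**Figure D5:**
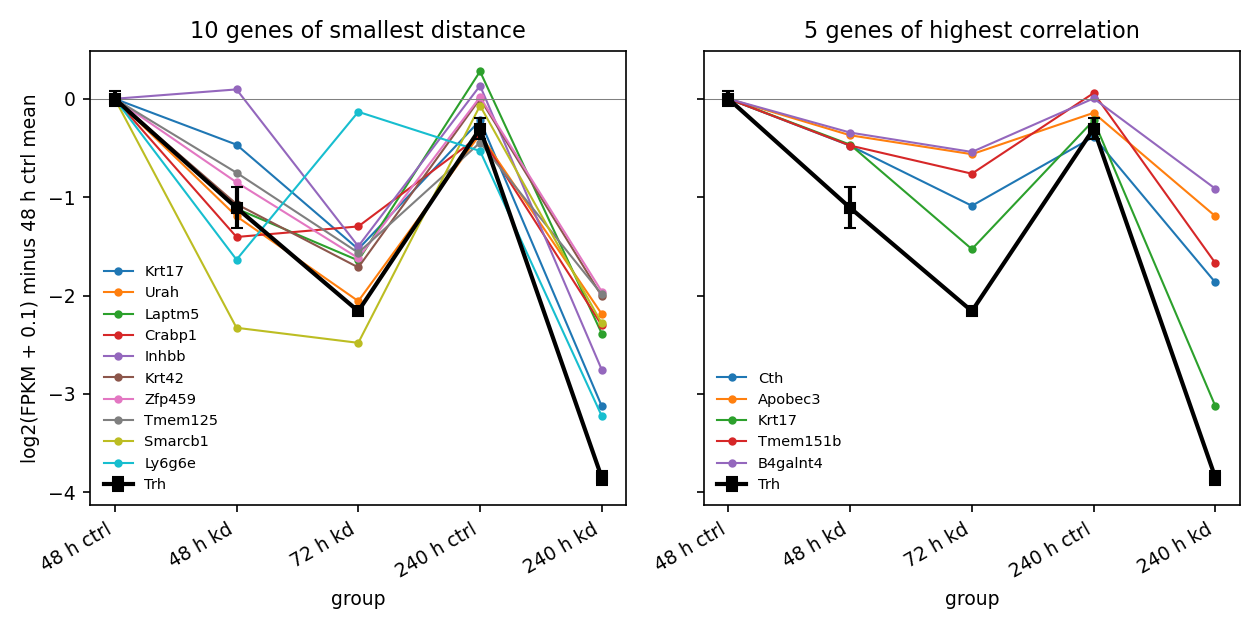
Mean log2(FPKM + 0.1) minus the mean of 48 h ctrl in each group, for Trh (black, with SD of 3 libraries) and for the 10 genes of smallest distance (left) and the 5 of highest correlation (right). Lines join groups to guide the eye. Trh reaches -3.85 in 240 h kd, below Ly6g6e and Krt17, which come nearest at -3.23 and -3.13.

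Among the embryonic stem cell markers, Klf4 was called lower at all 3 times, with log2 changes of -0.87, -0.76 and -1.20 in limma, Esrrb and Zfp42 were called lower at 240 h (-0.78 and -0.58), and Dppa5a was called higher at 72 h (1.04). Pou5f1, Nanog and Sox2 were not called by limma at any time. Of all tested genes 3.99%, 13.5% and 8.91% were called at 48 h, 72 h and 240 h. Of the 8 stem cell markers 6, 7 and 7 had an unadjusted limma p under 0.05, as had 31.9%, 60.8% and 44.9% of all tested genes. The median log2 change of the 8 was -0.17, -0.10 and -0.19. Of the neural markers, Neurod1 rose at 48 h and 240 h (0.87 and 0.70), Nes rose at 240 h (0.64) and Tubb3 fell at 72 h (-0.87), and the summed level of the 7 neural markers was 18.5 to 20.2 FPKM in ctrl and 24.0 to 25.2 FPKM in kd at 240 h, against 19.8 to 20.6 FPKM in 48 h ctrl, 21.1 to 24.4 FPKM in 48 h kd and 13.3 to 14.5 FPKM in 72 h kd. The summed level of the trophoblast markers was 0.701 to 0.802 FPKM in 48 h ctrl, 0.397 to 0.475 FPKM in 48 h kd and 0.429 to 0.695 FPKM in 72 h kd, while at 240 h it was 0.761 to 0.931 FPKM in ctrl and 1.52 to 1.71 FPKM in kd. That of the primitive endoderm markers was 0.596 to 0.636 FPKM in 48 h ctrl, 0.252 to 0.327 FPKM in 48 h kd and 0.175 to 0.244 FPKM in 72 h kd, and at 240 h it was 0.788 to 0.861 FPKM in ctrl and 0.638 to 0.728 FPKM in kd. At each time the ctrl and kd libraries did not overlap in either sum. The summed level of the fibroblast markers was 0.727 to 0.927 FPKM in 48 h ctrl, 0.523 to 0.808 FPKM in 48 h kd and 0.564 to 0.679 FPKM in 72 h kd. At 240 h it was 0.853 to 0.965 FPKM in ctrl and 1.34 to 1.56 FPKM in kd, of which Col1a1 made up 0.249 to 0.280 FPKM and 0.819 to 1.04 FPKM. The part of these changes in the fall of Trh was not tested.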

How the data were processed

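RNA-seq libraries of 81K1 mESC were made by the authors from total RNA and sequenced as single reads. Per the submitters' processing notes, STAR 2.7.0c, DESeq2 1.30.0 and R 4.0.3 were used with mm10 (GRCm38.p6). The deposited values are FPKM, which the authors calculated for each gene and library. The gene annotation behind them is not given in the sources used here. Of 55228 listed genes, 53297 (96.5%) matched GENCODE M21, used for identifiers, exons and strand. With the gene span, introns included, and 1 total for each library, 100% of the deposited FPKM values came out as whole reads (tolerance 0.001), so levels per exonic kilobase divide reads of the whole span by exonic length. Summed over genes, reads exceeded the totals by 7.38% to 8.34%, since overlapping genes share reads.

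Groups came from the sample labels. Trh, the gene lists and the rule for naming genes were chosen with earlier results of these data known. Named were Trh, Smarcb1, called genes of the 7 lists (precursor maturation, granule proteins, receptors and signalling, degradation, thyroid axis, transcription factors linked to Trh, peptide hormone precursors), the receptors and enzymes whether called or not, measured neighbours within 500 kb, and the 10 genes nearest to Trh by distance and 5 by correlation, leaving out predicted genes. Genes called in voom fits, marker genes and overlapping genes were named in addition after their values were seen.

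Tests used limma 3.58.1 in R 4.3.3 (lmFit, eBayes with trend) on log2(FPKM + 0.1), two-sided, for genes averaging 0.5 FPKM or more over the libraries of a fit, with Benjamini-Hochberg adjustment over all genes tested. Fold changes on this scale understate the change of low genes. The fits were tested on simulated data with known changes. Alternatives were pseudocounts of 1 and 0.01, no minimum or 2 FPKM, TPM, median centring, voom on recovered reads (mean of at least 10), 1 fit of all 15 libraries, each library left out, the replicate number as a block, and, for Trh and the counts of called genes, the other control group. Python 3.11.15, numpy 2.4.6, pandas 2.3.3 and matplotlib 3.10.9 were used. Counting error is set by the reads given beside values, and reads carry no molecular identifiers.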

Additional observations from a re-analysis of the deposited data

Results flagged for a closer look

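For 5 genes with a part in the report, the change with the knockdown differed between 240 h and 48 h in a test of the difference itself (interaction term over 12 libraries, limma, adjusted over 11412 genes, of which 5.82% were called). The difference, 240 h minus 48 h, was 1.06 on the log2 scale for Pcsk1n (SE 0.13, adjusted p = 0.00066) and 0.95 for Vgf (SE 0.17, adjusted p = 0.00509), whose changes were larger at 240 h, Vgf not being called at 48 h and passing the FPKM minimum only through its kd libraries (adjusted p = 0.00936 without a minimum). It was -1.09 for Calca (SE 0.13, adjusted p = 0.000494), -0.81 for Chga (SE 0.13, adjusted p = 0.0023) and -0.70 for Slc6a6 (SE 0.06, adjusted p = 4.08e-05), which were lower in the knockdown at 240 h and not called at 48 h. For Cpe, which was below the FPKM minimum, the difference was -1.96 in the voom fit (SE 0.18, adjusted p = 6.22e-07) and -0.77 on log2(FPKM + 0.1) without a minimum (SE 0.13, adjusted p = 0.00854).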

How the results depend on the processing

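The change of Trh moved by less than the pooled SD of the libraries compared with pseudocounts of 1 and 0.01, median centring and voom, the furthest being -3.46 at 240 h with a pseudocount of 1. With the other untreated group as control it was -0.81 at 48 h, -1.86 at 72 h and -3.85 at 240 h. In TPM the change between the untreated groups was -0.19, where the median gene moved from -0.02 to 0.09. Leaving out each library gave -1.20 to -1.0 at 48 h, -2.20 to -2.12 at 72 h, -3.60 to -3.49 at 240 h, -0.36 to -0.25 between untreated groups and -2.55 to -2.35 for the difference between 240 h and 48 h.

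Counts of called genes depended on the minimum and the method. At 48 h (456 genes) a pseudocount of 1 gave 208, a minimum of 2 FPKM 208 and voom 1472. At 72 h (1548) they gave 745, 768 and 3640, and no minimum 2500. At 240 h (1016) they gave 541, 453 and 2995, and no minimum 1768. For untreated cells (54) they gave 27, 32 and 212, 1 fit of all 15 libraries 100, and for the difference between 240 h and 48 h (664) 333, 324 and 1706, and no minimum 1051. Leaving out each library gave 2 to 10 genes for untreated cells, against 343 to 447, 1521 to 1607, 943 to 1056 and 586 to 691 for the others. Of the list genes voom called 11, 21, 15, 3 and 15 in these 5 comparisons. A pseudocount of 1 called 5 at 72 h, 4 at 240 h and 2 for the difference, a minimum of 2 FPKM 5 at 72 h and 2 for the difference, no minimum 7 for the difference, and the fit of all libraries 1 for untreated cells. Without single libraries 5 to 6 were called at 72 h and 4 to 6 for the difference. For named genes, 27 called changes had 400 alternatives, of which 0 reversed and 33 lost the call. With the other control group 591, 1901 and 1307 genes were called at 48 h, 72 h and 240 h, of which 3, 7 and 8 were list genes. With a pseudocount of 1 Ncoa3 at 48 h (0.49) and 72 h (0.48), Adm2 (-0.43) and Npw (0.48) at 72 h, Chga (-0.42), Calca (-0.57) and Itpr3 (0.52) at 240 h and the difference between 240 h and 48 h for Chga (-0.47), Vgf (0.46) and Slc6a6 (-0.57) came inside the size limit, as did Ncoa3 at 72 h with median centring (0.57).

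Deviations of same-numbered libraries correlated between -0.105 and 0.142 over 12 pairs. Differently numbered libraries were not set beside them, so these values cannot say whether replicate numbers pair the libraries. With the replicate block 285 genes were called at 48 h, and for untreated cells limma called 0 (3384 at an unadjusted p under 0.05), where voom without the block called 212. Pcsk1n at 48 h then had an adjusted p of 0.0501. The causes were not tested.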
